A study of Homo sapiens with 28 samples.

Results

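The glutathione peroxidases GPX1, GPX2, GPX3 and GPX4 were followed in A549 and H1299 cells exposed to azacitidine or decitabine. They are 4 of the 8024 genes tested, out of 11963 genes with a singly named probe set, and 5 of the 22277 probe sets of the array carry their symbols: 1 each for GPX1 (200736_s_at), GPX2 (202831_at) and GPX4 (201106_at), and 2 for GPX3 (201348_at and 214091_s_at). The genes were chosen by symbol and with their vehicle levels known, since GPX1 was near silent in H1299 with vehicle and GPX2 was high in A549 with vehicle. Those levels, and the differences built on them, are therefore given as a description with no test. All 4 genes passed the filter on dim genes, GPX2 and GPX3 through A549 alone.

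Glutathione peroxidases reduce hydrogen peroxide and lipid hydroperoxides to water and alcohols, and oxidise glutathione in doing so. The 4 human members studied here are selenoproteins: a selenocysteine, placed at a UGA codon by a dedicated translation machinery, sits in the active site. GPX1 is the widespread cytosolic enzyme, GPX2 an epithelial form best known from the gut and the airways and a target of the transcription factor NRF2, GPX3 the secreted form found in plasma, and GPX4 the enzyme that reduces phospholipid hydroperoxides within membranes and protects cells from ferroptosis, an iron-dependent death by lipid peroxidation. A549 is a lung adenocarcinoma line known for a mutated KEAP1, the inhibitor of NRF2, and H1299 is a lung carcinoma line known to lack p53.

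Both lines were treated for 48 h, with drug renewed every 24 h, and each of 14 groups held 2 arrays. The groups of each line were the vehicle dimethyl sulfoxide and azacitidine or decitabine at 0.3, 1 and 3 µM. Both drugs are cytidine analogs that enter DNA and trap DNA methyltransferases; azacitidine is a ribonucleoside, which also enters RNA, and decitabine is the corresponding deoxyribonucleoside. The question the design addresses is how the responses to the pair compare over a dose range. Values are MAS5 signals, differences are in log2(signal + 32), and a gene is called where limma's adjusted p was under 0.05.

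The upstream sequences are shown because both drugs act on methylation at CG dinucleotides and the 3 genes whose signals moved most differ in how many they carry. Each line gives the 250 bases before the RefSeq transcript start on GRCh38.p14, 5′ to 3′ on the strand of the gene, with every CG in capitals. The GPX1 window is at chr3:49358354-49358603 on the minus strand, that of GPX2 at chr14:64942746-64942995 on the minus strand, and that of GPX3 at chr5:151020341-151020590 on the plus strand.
GPX1 upstream: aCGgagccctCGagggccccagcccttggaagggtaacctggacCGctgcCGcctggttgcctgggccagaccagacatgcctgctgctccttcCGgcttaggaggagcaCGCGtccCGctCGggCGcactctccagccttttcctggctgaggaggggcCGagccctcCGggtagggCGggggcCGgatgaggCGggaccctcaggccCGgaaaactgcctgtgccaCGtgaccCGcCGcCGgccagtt
GPX2 upstream: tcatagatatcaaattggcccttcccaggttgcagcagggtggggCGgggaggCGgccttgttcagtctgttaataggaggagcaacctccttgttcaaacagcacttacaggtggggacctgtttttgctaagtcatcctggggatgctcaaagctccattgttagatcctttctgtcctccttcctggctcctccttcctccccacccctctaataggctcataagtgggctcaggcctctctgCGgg
GPX3 upstream: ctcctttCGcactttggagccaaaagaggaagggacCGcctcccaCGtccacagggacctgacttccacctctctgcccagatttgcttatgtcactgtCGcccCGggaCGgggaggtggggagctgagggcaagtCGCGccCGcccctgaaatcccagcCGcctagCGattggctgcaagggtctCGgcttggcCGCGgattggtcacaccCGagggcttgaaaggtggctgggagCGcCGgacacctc
GPX1 carried 20 CG, GPX3 17 and GPX2 3.

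Of 35114 such windows of RefSeq transcripts, with a median of 11 CG, 32.45% held at least as many CG as GPX1, 38.95% at least as many as GPX3 and 77.1% at least as many as GPX2. GPX4 has 3 windows on chromosome 19, with 33, 33 and 37 CG; the first, at chr19:1103744-1103993 on the plus strand, was matched or exceeded by 8.14% of windows. The letters TGACNNNGC, the core of the antioxidant response element that NRF2 binds, were searched on both strands. They occurred 1 time in the GPX2 window, as TGACTTAGC on the strand opposite to the gene, starting 122 bases before the start, and not in the windows printed for GPX1 and GPX3 or in those of GPX4; 10.9% of all windows held such a match. Methylation was not measured, so these counts describe the letters only.

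**Figure D1:**
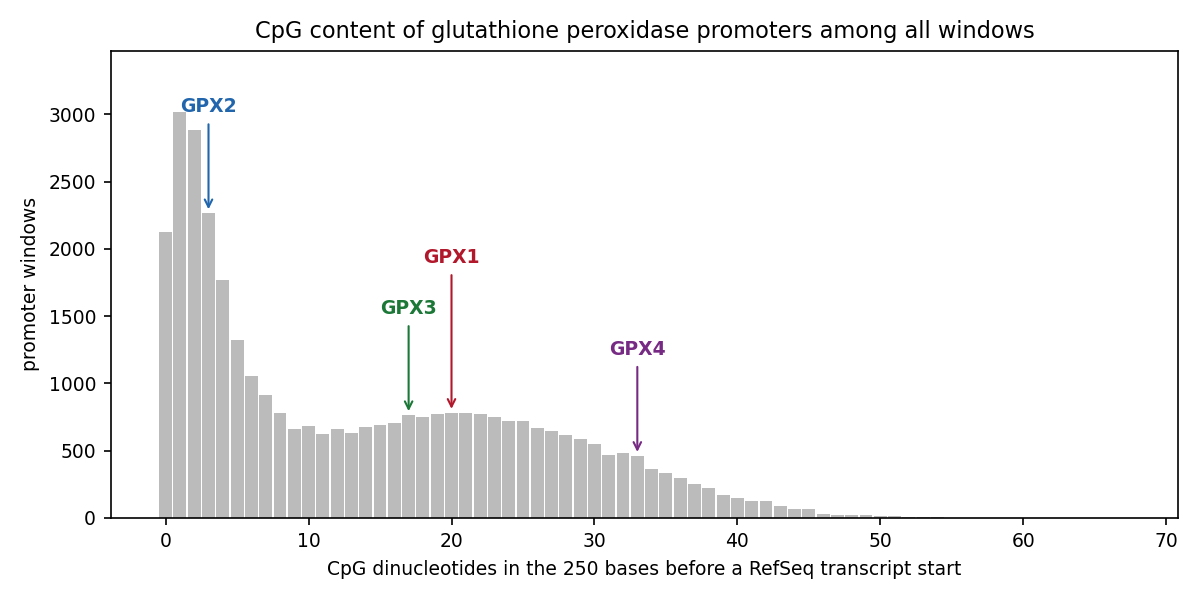
The bars count promoter windows (vertical axis) by the number of CG dinucleotides in the 250 bases before a RefSeq transcript start (horizontal axis), over 35114 windows. Arrows mark GPX2 with 3 CG among the CG-poor windows, GPX3 with 17, GPX1 with 20 and the first GPX4 window with 33.

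The array medians ranged from 92.7 to 123 and the 25th percentiles from 18.0 to 28.3 over the 28 arrays, and 2 arrays a group limit the precision of every value. Signals under the array median are called dim here. CDKN2A, known to be deleted in A549, stayed below the array median on 14 of 14 A549 arrays (33.6 to 106) and was 745 to 1658 in H1299. The keratins KRT8 and KRT18 were above the median on all arrays of both lines, while the leukocyte genes PTPRC, CD3D, CD14 and LYZ and the endothelial gene PECAM1 were above it on 0 of 28. The endothelial gene VWF was above it on 1 H1299 array (101.2), the erythroid gene HBB on 13 of 14 arrays of each line (87.2 to 194), and the epithelial gene EPCAM on 14 of 14 A549 arrays but 6 of 14 H1299 arrays; their part in the results was not tested. A549 vehicle replicate 1 and A549 azacitidine 3 µM replicate 1 had the highest 25th percentiles (28.3 and 25.7), and A549 decitabine 3 µM replicate 1 is labelled a repeat. Calls that changed without these 3 arrays are given both ways.

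**Figure D2:**
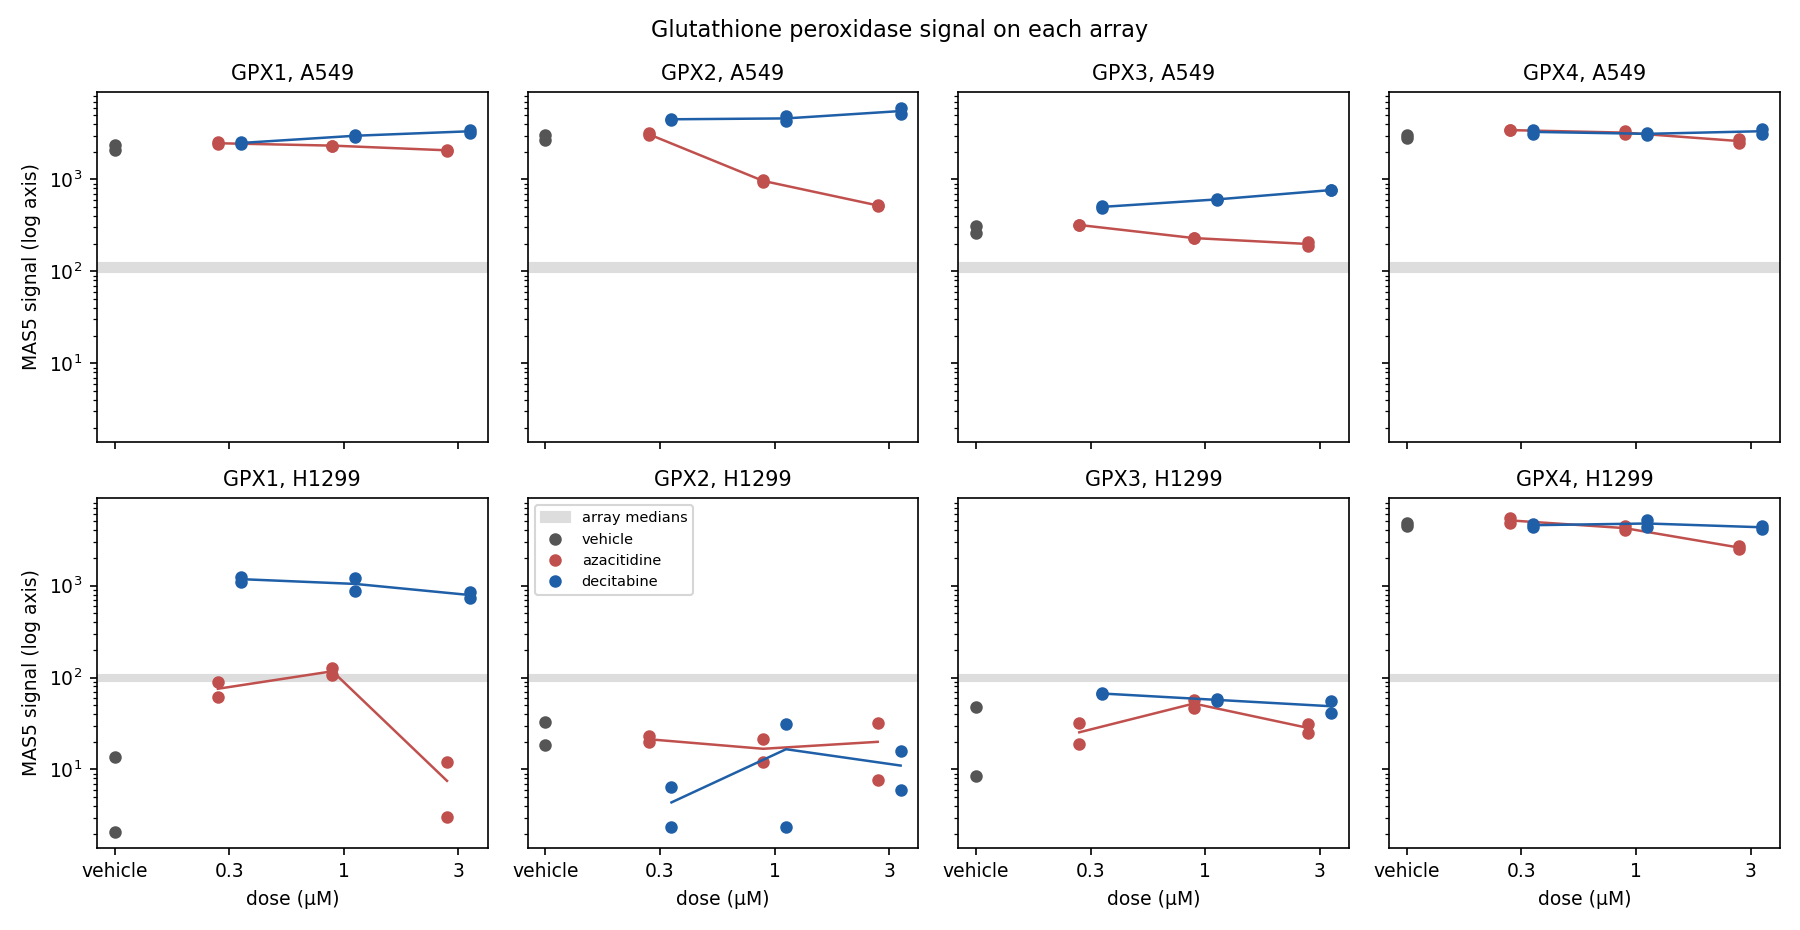
Points are the MAS5 signals of single arrays (vertical log axis) of GPX1, GPX2, GPX3 and GPX4 by dose in µM (horizontal axis), with A549 in the upper and H1299 in the lower panels, vehicle in grey, azacitidine in red and decitabine in blue. Lines join the means of the 2 arrays of a group, and the grey band spans the array medians of the line. In H1299 the GPX1 signals with decitabine lie between 729 and 1247 and those with azacitidine between 3.08 and 128.04. In A549 the GPX2 signals of the drugs part from 1 µM on.

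GPX1, the main cytosolic peroxidase, was lower with azacitidine than with decitabine in both lines, and the gap was wide in H1299. The H1299 vehicle arrays gave 2.09 and 13.5. With decitabine they gave 1247 and 1104 at 0.3 µM, 880.1 and 1204 at 1 µM, and 849 and 729 at 3 µM. With azacitidine the signals were 89.8 and 61.2 at 0.3 µM, 128.04 and 106 at 1 µM, and 11.97 and 3.08 at 3 µM. All 6 decitabine arrays were thus above all 6 azacitidine arrays, and at 3 µM the azacitidine arrays overlapped those of vehicle.

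Over the 3 matched doses GPX1 in H1299 was lower with azacitidine than with decitabine by a log2 difference of -3.57 (SE 0.09, adjusted p = 3.5e-18; 54% of all genes called). The exact permutation test within dose (two-sided) gave p = 0.00926, the smallest it can give. At single doses the log2 differences were -3.50 at 0.3 µM (adjusted p = 7.1e-13; 6.38% of all genes called), -2.84 at 1 µM (adjusted p = 9.8e-12; 34%) and -4.38 at 3 µM (adjusted p = 1.8e-15; 56.3%). GPX1 was thus called at every dose, the lowest included, where few genes were. From 0.3 to 3 µM GPX1 fell by 1.44 on the log2 scale with azacitidine (adjusted p = 7.2e-08; 55.5% of all genes called).

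The azacitidine arrays at 3 µM read as low as vehicle, so the sizes of these GPX1 differences in H1299 rest on the 32 added to each signal. At 3 µM the drug difference was -6.76 with 1 added and -2.76 with the larger constant tried, and over doses it was -4.62 and -2.56. The fall from 0.3 to 3 µM of azacitidine was -3.37 and -0.58. All of these were called lower under each constant.

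With decitabine GPX1 in H1299 fell by 0.56 on the log2 scale from 0.3 to 3 µM (SE 0.15, adjusted p = 0.0224; 9.93% of all genes called). This fall lost its call without the 0.3 µM replicate 1 (-0.47) or the 3 µM replicate 2 (-0.45). It was also not called in a fit of H1299 alone (adjusted p = 0.0975) or with 1 added to the signal (adjusted p = 0.52). Against vehicle, described without a test because the vehicle level chose the gene, GPX1 stood 4.94, 4.75 and 4.38 higher on the log2 scale with decitabine at 0.3, 1 and 3 µM. With azacitidine it stood 1.44 and 1.92 higher at 0.3 and 1 µM. The size of these differences rests on the 32 added to each signal: at 0.3 µM decitabine it was 7.45 with 1 added and 3.26 with the larger constant tried.

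In A549 GPX1 was bright in every group. The vehicle arrays gave 2085 and 2339, decitabine gave 2543 and 2436 at 0.3 µM, 2926 and 3043 at 1 µM, and 3465 and 3210.2 at 3 µM, and azacitidine gave 2520 and 2428, 2330.0 and 2330.3, and 2041 and 2101 at the same doses. At 1 and 3 µM both decitabine arrays lay above both azacitidine arrays, while at 0.3 µM the drugs overlapped. Over the 3 doses GPX1 was lower with azacitidine by a log2 difference of -0.35 (SE 0.09, adjusted p = 0.00204; 54.4% of all genes called; exact permutation p = 0.0185). By dose the log2 difference was -0.01 at 0.3 µM (95% interval -0.32 to 0.31), -0.35 at 1 µM (adjusted p = 0.077) and -0.68 at 3 µM (SE 0.15, adjusted p = 8.1e-04); 5.7%, 34.3% and 50.4% of all genes were called at those doses.

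With 1 added to the signal, neither the difference over doses in A549 (adjusted p = 0.29) nor that at 3 µM (adjusted p = 0.24) was called. In a fit of A549 alone the difference over doses stayed called, and that at 1 µM was called as well (adjusted p = 0.0025). Compared with vehicle, GPX1 in A549 stood 0.59 higher on the log2 scale with decitabine at 3 µM (SE 0.15, adjusted p = 0.0062; 25.8% of all genes called). That call was lost when vehicle replicate 1 was left out (0.51), when decitabine 3 µM replicate 1 was (0.53), and when the 3 arrays were (0.45). It was lost as well with 1 added to the signal (adjusted p = 0.39). At 1 µM decitabine the difference from vehicle was 0.43 (adjusted p = 0.056), and the azacitidine groups lay between -0.09 and 0.16 from vehicle, none called. Between 0.3 and 3 µM GPX1 differed by 0.42 with decitabine (adjusted p = 0.093) and by -0.25 with azacitidine (adjusted p = 0.21), neither called in the fit of all arrays and both called in the fit of A549 alone.

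Over all 14 groups the order of GPX1 put the 7 A549 groups first, from 3338 ± 180.4 (SD, n = 2) with decitabine at 3 µM to 2071 ± 42.4 with azacitidine at 3 µM. The 3 H1299 decitabine groups followed, from 1176 ± 101 to 789 ± 85.4, then azacitidine at 1 µM (117 ± 15.5) and 0.3 µM (75.5 ± 20.2). The lowest were H1299 vehicle (7.80 ± 8.07) and H1299 azacitidine at 3 µM (7.52 ± 6.29), which overlapped. Decitabine therefore brought GPX1 in H1299 to a level still under every A549 group.

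GPX2, the epithelial peroxidase, was high in A549 and dim in H1299, and in A549 it fell with rising azacitidine. The A549 vehicle arrays gave 2687 and 3011. Azacitidine gave 3052 and 3157 at 0.3 µM, 990.5 and 937 at 1 µM, and 509 and 533 at 3 µM, while decitabine gave 4430.4 and 4581 at 0.3 µM, 4307 and 4905 at 1 µM, and 5993 and 5081 at 3 µM. At every dose both decitabine arrays were above both azacitidine arrays and above both vehicle arrays; at 1 and 3 µM both azacitidine arrays were below vehicle.

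Over doses GPX2 in A549 was lower with azacitidine than with decitabine by a log2 difference of -2.03 (SE 0.13, adjusted p = 3.2e-11; exact permutation p = 0.00926). The gap widened with dose: the log2 difference was -0.53 at 0.3 µM (SE 0.22, adjusted p = 0.18), -2.22 at 1 µM (adjusted p = 1.4e-07) and -3.33 at 3 µM (adjusted p = 1.4e-10). The first of these was called in a fit of A549 alone (adjusted p = 0.0054) and with a larger added constant (adjusted p = 0.0029). From 0.3 to 3 µM GPX2 fell by 2.50 on the log2 scale with azacitidine (SE 0.22, adjusted p = 3.8e-08; 34.4% of all genes called), and the decitabine difference between those doses was 0.29 (95% interval -0.17 to 0.75, adjusted p = 0.48; 8.87%).

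Against the A549 vehicle, a description because that level chose the gene, GPX2 stood at 0.12, -1.53 and -2.38 on the log2 scale with azacitidine at 0.3, 1 and 3 µM. With decitabine it stood at 0.66, 0.69 and 0.95. In such bulk samples fewer cells with GPX2 and less GPX2 RNA per cell cannot be told apart, and the same holds for each gene here.

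In H1299 GPX2 was below the array median on 14 of 14 arrays, with a lowest signal of 2.35, a median of 17.3 and a highest of 33.2. All H1299 groups overlapped their neighbours in the order of levels. At 0.3 µM decitabine the arrays gave 2.35 and 6.43 against 33.2 and 18.6 with vehicle, a log2 difference of -0.66 (SE 0.22, adjusted p = 0.0409; 17.8% of all genes called). That call was lost without vehicle replicate 1 (-0.48), without either 0.3 µM decitabine array (-0.58 and -0.74) in a fit of H1299 alone (adjusted p = 0.14) and without the 3 A549 arrays (-0.66, adjusted p = 0.058). Median centring, the larger added constant, no filter and no intensity trend lost it as well. The other H1299 groups lay between -0.43 and -0.11 from vehicle and were not called. Without decitabine 1 µM replicate 1 the decitabine 1 µM group came to -0.74 and was called.

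Between the drugs GPX2 in H1299 differed over doses by 0.29, higher with azacitidine (95% interval 0.02 to 0.55, adjusted p = 0.0625; exact permutation p = 0.17). Its side of the threshold turned on single arrays among these dim signals. It was called without azacitidine 1 µM replicate 1 (0.33, adjusted p = 0.049), azacitidine 3 µM replicate 2 (0.40, adjusted p = 0.0094), decitabine 1 µM replicate 1 (0.43, adjusted p = 0.0026) or decitabine 3 µM replicate 1 (0.34, adjusted p = 0.042). By dose the differences were 0.55, 0.06 and 0.24, none called (adjusted p = 0.15, 0.86 and 0.36), and that at 3 µM was called without azacitidine 3 µM replicate 2 (0.59, adjusted p = 0.049).

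GPX3, the secreted plasma form, rose with decitabine in A549. The vehicle arrays gave 312 and 259.8, and decitabine gave 515 and 490.2 at 0.3 µM, 598 and 613 at 1 µM, and 771 and 761.6 at 3 µM. Azacitidine gave 317 and 321 at 0.3 µM, 231 and 229 at 1 µM, and 208 and 189 at 3 µM. Every decitabine array was above vehicle and above every azacitidine array, and at 1 and 3 µM every azacitidine array was below vehicle.

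Against vehicle GPX3 in A549 rose by a log2 difference of 1.33 with decitabine at 3 µM (SE 0.20, adjusted p = 5.8e-05), by 1.01 at 1 µM (adjusted p = 0.0016; 16.6% of all genes called) and by 0.75 at 0.3 µM (adjusted p = 0.0255; 7.69%). The value at 0.3 µM was not called without any one of its 4 arrays: 0.87 and 0.64 without vehicle replicate 1 or 2, and 0.72 and 0.79 without decitabine replicate 1 or 2 (adjusted p = 0.057 to 0.14). Without the 3 arrays it was 0.87 and not called. With 1 added to the signal neither the value at 0.3 µM nor that at 1 µM (adjusted p = 0.10) was called. With azacitidine the differences from vehicle were 0.15, -0.27 and -0.46 at 0.3, 1 and 3 µM, none called in the fit of all arrays (adjusted p = 0.78, 0.35 and 0.080). That at 3 µM was called in a fit of A549 alone (adjusted p = 0.0042).

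Azacitidine at 0.3, 1 and 3 µM thus changed 0 of the 3 members tested against vehicle in A549 by limma at adjusted p under 0.05. At an unadjusted p under 0.05 the counts were 1, 0 and 1, and 2.44%, 25.2% and 38.3% of all genes were called. Decitabine changed 1, 1 and 2 of the same 3 members at those doses, beside 7.69%, 16.6% and 25.8% of all genes. The GPX3 call at 0.3 µM and the GPX1 call at 3 µM among these were lost when single arrays were left out. With 1 added to the signal both of them and the GPX3 call at 1 µM were lost.

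Between the drugs GPX3 in A549 was lower with azacitidine over doses by a log2 difference of -1.23 (SE 0.12, adjusted p = 2.1e-08; exact permutation p = 0.00926). By dose the difference was -0.60 (SE 0.20, adjusted p = 0.090), -1.28 (adjusted p = 5.2e-05) and -1.79 (adjusted p = 3.5e-07) at 0.3, 1 and 3 µM, the first called in a fit of A549 alone (adjusted p = 0.0058). At 0.3 µM in A549 limma thus called 0 of 4 members between the drugs in the fit of all arrays, beside 5.7% of all genes. At an unadjusted p under 0.05 the count was 2. From 0.3 to 3 µM GPX3 fell by 0.61 on the log2 scale with azacitidine (adjusted p = 0.0248), a call lost without any one of the 4 arrays (-0.62 and -0.60 without azacitidine 0.3 µM replicate 1 or 2, -0.67 and -0.55 without 3 µM replicate 1 or 2) and without the 3 arrays (-0.67, adjusted p = 0.074). Nor was that fall called with 1 added to the signal. With decitabine the difference between those doses was 0.58 (adjusted p = 0.084), called in a fit of A549 alone (adjusted p = 0.0065). In the fit of all arrays limma called 0 of 4 members between those decitabine doses, beside 8.87% of all genes, and 2 passed an unadjusted p under 0.05.

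The other GPX3 probe set, 214091_s_at, also had every decitabine array above, and every azacitidine array at 1 and 3 µM below, the vehicle arrays in A549. At 0.3 µM azacitidine its arrays lay on either side of vehicle (194 and 228, in order of size), where those of 201348_at lay above it. Its vehicle arrays gave 214 and 215, decitabine at 3 µM 418 and 433, and azacitidine at 3 µM 100.3 and 121. Its drug difference over doses was -1.12 in A549 (SE 0.13, adjusted p = 3.0e-07), and against vehicle it was called lower with azacitidine at 3 µM (-0.79, adjusted p = 0.0081), where 201348_at was not. With decitabine it was 0.60 (not called), 0.73 and 0.89 above vehicle at 0.3, 1 and 3 µM.

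In H1299 GPX3 was dim on 14 of 14 arrays by either probe set, at 8.49 to 67.3 by 201348_at. Over doses it was lower with azacitidine than with decitabine by -0.43 (SE 0.12, adjusted p = 0.0038; exact permutation p = 0.0185), and by -0.33 with the other probe set (adjusted p = 0.038). At 0.3 µM azacitidine gave 19.0 and 31.8 and decitabine 66.8 and 67.3, a difference of -0.80 (adjusted p = 0.0200). That call was lost without azacitidine 0.3 µM replicate 1 (-0.64), decitabine 0.3 µM replicate 1 (-0.80) or replicate 2 (-0.79), and with the other probe set (-0.17). It was lost as well in a fit of H1299 alone and with 1 added to the signal. At 1 and 3 µM the differences were -0.09 and -0.42 and not called.

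The H1299 vehicle arrays of GPX3 were 8.49 and 48.2, so comparisons with them rest on which array is used. The called log2 differences from vehicle were 0.56 with azacitidine at 1 µM (adjusted p = 0.037; 35.3% of all genes called), 0.80 with decitabine at 0.3 µM (adjusted p = 0.0090) and 0.65 with decitabine at 1 µM (adjusted p = 0.025; 23.4%). Without vehicle replicate 1 these came to 0.07, 0.30 and 0.15, none called. The azacitidine call was also lost without azacitidine 1 µM replicate 1 (0.47) or 2 (0.65) and without the 3 A549 arrays (0.56, adjusted p = 0.051), the first decitabine call without decitabine 0.3 µM replicate 1 (0.80), and the second without decitabine 1 µM replicate 1 (0.63) or 2 (0.66). A fit of H1299 alone and the larger added constant each lost the azacitidine call and the second decitabine call. The other probe set put none of the 3 past the threshold and gave -0.13, 0.37 and 0.28.

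Azacitidine at 3 µM lay 0.08 from vehicle in H1299 for GPX3 (adjusted p = 0.78), yet leaving out vehicle replicate 1 gave -0.41 (adjusted p = 0.047) and leaving out replicate 2 gave 0.57 (adjusted p = 0.0084). Decitabine at 3 µM lay 0.50 above vehicle (adjusted p = 0.070), or 0.99 with replicate 2 left out (adjusted p = 2.3e-04). Of the 3 members tested against vehicle in H1299, limma called 0 at 0.3 µM azacitidine (0 at an unadjusted p under 0.05; 5.67% of all genes called) and 0 at 3 µM decitabine (1 at an unadjusted p under 0.05; 30.9%).

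GPX4, the membrane lipid peroxidase, was bright in both lines and fell in H1299 with the highest azacitidine dose. The H1299 vehicle arrays gave 4399 and 4814, azacitidine 4801 and 5435 at 0.3 µM, 4040.0 and 4399 at 1 µM, and 2695 and 2485 at 3 µM. The 6 decitabine arrays ranged from 4130.2 to 5105. Both arrays of azacitidine at 3 µM lay below every other H1299 array, and each other H1299 group overlapped the next in the order of levels.

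In H1299 GPX4 fell by 0.82 on the log2 scale with azacitidine at 3 µM against vehicle (SE 0.09, adjusted p = 1.5e-07; 53.9% of all genes called). It fell by 0.97 between 0.3 and 3 µM of azacitidine (adjusted p = 1.4e-08), and at 3 µM it was lower with azacitidine than with decitabine by -0.73 (adjusted p = 8.0e-07). At 0.3 and 1 µM the drugs differed by 0.17 (95% interval -0.02 to 0.36) and -0.16 (-0.35 to 0.03), neither called. Over the 3 doses together the drug difference was -0.24 (SE 0.05, adjusted p = 6.0e-04), while the exact permutation test within dose gave p = 0.19. The decitabine groups lay between -0.10 and 0.04 from vehicle, none called.

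In A549 the GPX4 vehicle arrays gave 2849 and 3013. Azacitidine gave 3440.0 and 3432 at 0.3 µM, 3083 and 3370.1 at 1 µM, and 2494 and 2728 at 3 µM, and decitabine 3042 to 3534 over its doses. No dose of either drug was called against vehicle, the log2 differences running from -0.17 to 0.23. Azacitidine at 3 µM was lower than at 0.3 µM by -0.39 (SE 0.09, adjusted p = 0.0021) and lower than decitabine at 3 µM by -0.35 (adjusted p = 0.0029). The latter was -0.27 without decitabine 3 µM replicate 1 (adjusted p = 0.056) and -0.21 without the 3 arrays (adjusted p = 0.22). Over doses the drug difference was -0.08 (95% interval -0.19 to 0.03, adjusted p = 0.20; exact permutation p = 0.35).

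**Figure D3:**
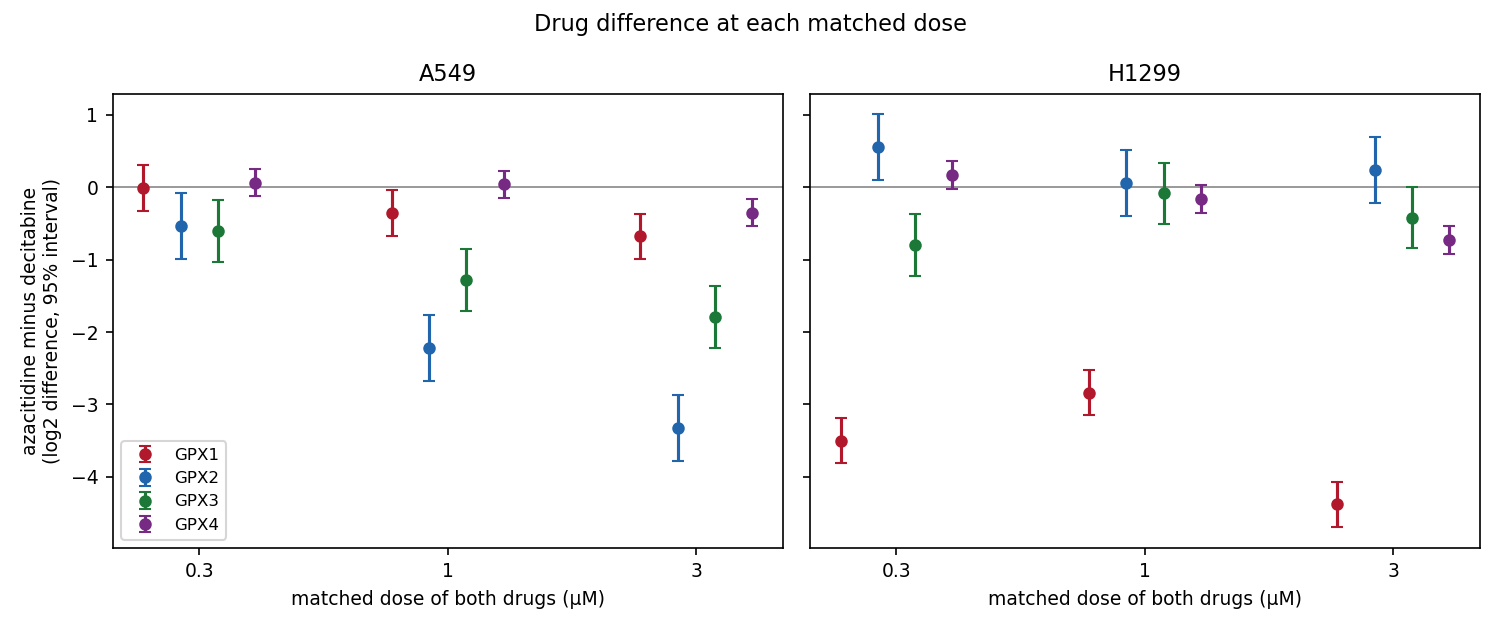
Points give the log2 difference, azacitidine minus decitabine, of GPX1, GPX2, GPX3 and GPX4 (vertical axis) at each matched dose in µM (horizontal axis), with 95% intervals from limma, in A549 on the left and H1299 on the right. In A549 the differences of GPX1, GPX2 and GPX3 grow with dose, to -0.68, -3.33 and -1.79 at 3 µM. In H1299 GPX1 lies at -2.84 or below at every dose with 32 added to the signal, and GPX4 leaves 0 at 3 µM.

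The drugs were compared as 1 pair at 3 matched doses in 2 lines. At 3 µM in A549 all 4 members were called lower with azacitidine than with decitabine. There 50.4% of all genes were called in either direction, and the share called lower alone was not counted. The GPX1 call there was lost with 1 added to the signal (limma, adjusted p = 0.24). The GPX4 call was lost without decitabine 3 µM replicate 1 or the 3 arrays. At 1 µM in A549 only GPX2 and GPX3 were called lower (34.3% of all genes called), and at 0.3 µM no member was (5.7%). In H1299 GPX1 and GPX3 were called lower at 0.3 µM (6.38%), only GPX1 at 1 µM (34%), and GPX1 and GPX4 at 3 µM (56.3%). That GPX3 call was lost when single arrays were left out. Over doses 3 of 4 were lower in each line and 0 higher: GPX1, GPX2 and GPX3 in A549, where 26.5% of all genes were called lower and 27.9% higher, and GPX1, GPX3 and GPX4 in H1299, where 23.1% were called lower and 30.9% higher. Of these, the GPX1 call in A549 was lost with 1 added to the signal (limma, adjusted p = 0.29). For GPX4 in H1299 the exact permutation test gave p = 0.19, and 3 µM was the only single dose that limma called. The drug difference itself was compared between the lines, as A549 minus H1299, with 40.7% of all genes called. For GPX1 it was 3.23 (SE 0.12, adjusted p = 6.3e-14), with a size that depends on the added constant through the low H1299 signals. For GPX2 and GPX3 it was -2.31 and -0.79. No test is given for these, since both genes passed the filter through A549 alone and were dim on all 14 H1299 arrays.

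For GPX4 the same difference between lines was 0.16 (SE 0.07, adjusted p = 0.096), and it was called without the 3 A549 arrays (0.21, adjusted p = 0.045) or without H1299 decitabine 1 µM replicate 1 (0.20, adjusted p = 0.040). So the gene with the wide drug gap was GPX1 in H1299 and GPX2 in A549. The 3 comparisons at single doses and the one over doses share arrays, and so do the comparisons with 1 vehicle group.

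The response to 3 µM against vehicle was compared between the lines with a test for GPX4. Under azacitidine the GPX4 response was 0.66 higher in A549 than in H1299 (SE 0.13, adjusted p = 5.4e-04; 31.4% of all genes called), which sets a difference from vehicle of -0.17 beside one of -0.82. Under decitabine it was 0.28 higher (adjusted p = 0.14; 17.3% of all genes called). For the other members, described without a test, the differences were -0.09 for GPX1, -2.19 for GPX2 and -0.54 for GPX3 with azacitidine, and -3.79, 1.37 and 0.84 with decitabine.

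The GPX3 values turned on the H1299 vehicle arrays. Under decitabine the difference was 1.33 without H1299 vehicle replicate 1 and 0.34 without replicate 2, and 0.95 without the 3 A549 arrays. Under azacitidine it was -0.05 without H1299 vehicle replicate 1 and -1.03 without replicate 2.

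With vehicle alone, GPX4 was lower in A549 than in H1299, a log2 difference of -0.65 (SE 0.09, adjusted p = 2.2e-06; 65.3% of all genes called). GPX1 and GPX2, whose vehicle levels chose them, were 5.83 and 5.65 higher in A549, and GPX3, which passed the filter through A549 alone, was 2.48 higher, all given with no test. The array also carries GPX5, the epididymal member, with 2 probe sets, and GPX7, a member of the endoplasmic reticulum, with 1. Both were below the array median on all 28 arrays, and no drug or dose brought them above it.

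Genes around the peroxidases were described by 6 lists, counted over the drug difference over doses, and no list was tested as a set. Of all genes 27.9% were called higher and 26.5% lower in A549 (median 0.02). In H1299 30.9% were called higher and 23.1% lower (median 0.05). Glutathione supply and recycling was mostly higher with azacitidine: 10 of 13 genes tested were higher and 1 lower in A549 (median 0.30), and 8 higher and 2 lower in H1299 (median 0.27). The subunits of the cystine importer were among them, SLC3A2 at 0.83 and SLC7A11 at 0.78 in A549 and SLC7A11 at 1.92 and SLC3A2 at 1.24 in H1299. SLC7A11, SLC3A2 and HMOX1 were listed with their movement in these data known.

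Glutathione transferases, which conjugate glutathione to electrophiles, were 0 higher and 5 lower of 12 in A549 (median -0.20) and 1 higher and 3 lower in H1299 (median -0.15). The lowest were the microsomal MGST3 at -0.65 and GSTM2 at -0.42 in A549, and MGST2 at -0.62 and GSTA4 at -0.59 in H1299. Other peroxide and superoxide removal had 2 higher and 3 lower of 12 in A549 (median -0.08) and 1 higher and 5 lower in H1299 (median -0.12). Over all genes 54.4% in A549 and 54% in H1299 were called in either direction. Catalase, CAT, was at -0.39 in A549, the mitochondrial transhydrogenase NNT at -0.34 in A549 and -0.42 in H1299, and thioredoxin reductase TXNRD1 at 0.40 in H1299.

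The selenoprotein synthesis list had 4 genes higher and 1 lower of 7 in A549 (median 0.28) and 5 higher and 0 lower in H1299 (median 0.21). Besides genes of selenocysteine insertion it holds the receptor gene LRP8 and the lyase gene SCLY. The receptor for selenoprotein P, LRP8, was at 0.55 and the selenocysteine tRNA factor TRNAU1AP at -0.53 in A549; selenocysteine lyase SCLY was at 0.41 and selenophosphate synthetase SEPHS2 at 0.37 in H1299. Among 6 other selenoproteins 1 was higher and 4 lower in A549 (median -0.19), and 1 higher and 1 lower in H1299 (median -0.02). Methionine sulfoxide reductase MSRB1 was lower in both lines (-0.54 and -0.52), the thyroid hormone deiodinase DIO3 was at -2.00 in A549, and SELENOW at 0.56 in H1299.

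DIO3 in A549 gave 40.7 and 18.4 with vehicle, 153 to 199 over the decitabine arrays and 4.30 to 33.2 over the azacitidine arrays, so its signal was above the array medians with decitabine only among these A549 groups. Lipid peroxidation partners of GPX4 had 3 higher and 2 lower of 8 in A549 (median 0.04) and 2 higher and 1 lower in H1299 (median 0.06). Heme oxygenase HMOX1 was at 1.14 in A549 and 0.85 in H1299, GCH1, the first enzyme of tetrahydrobiopterin synthesis, at -1.05 in A549, and the phospholipid acyltransferase LPCAT3 at 1.09 in H1299.

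**Figure D4:**
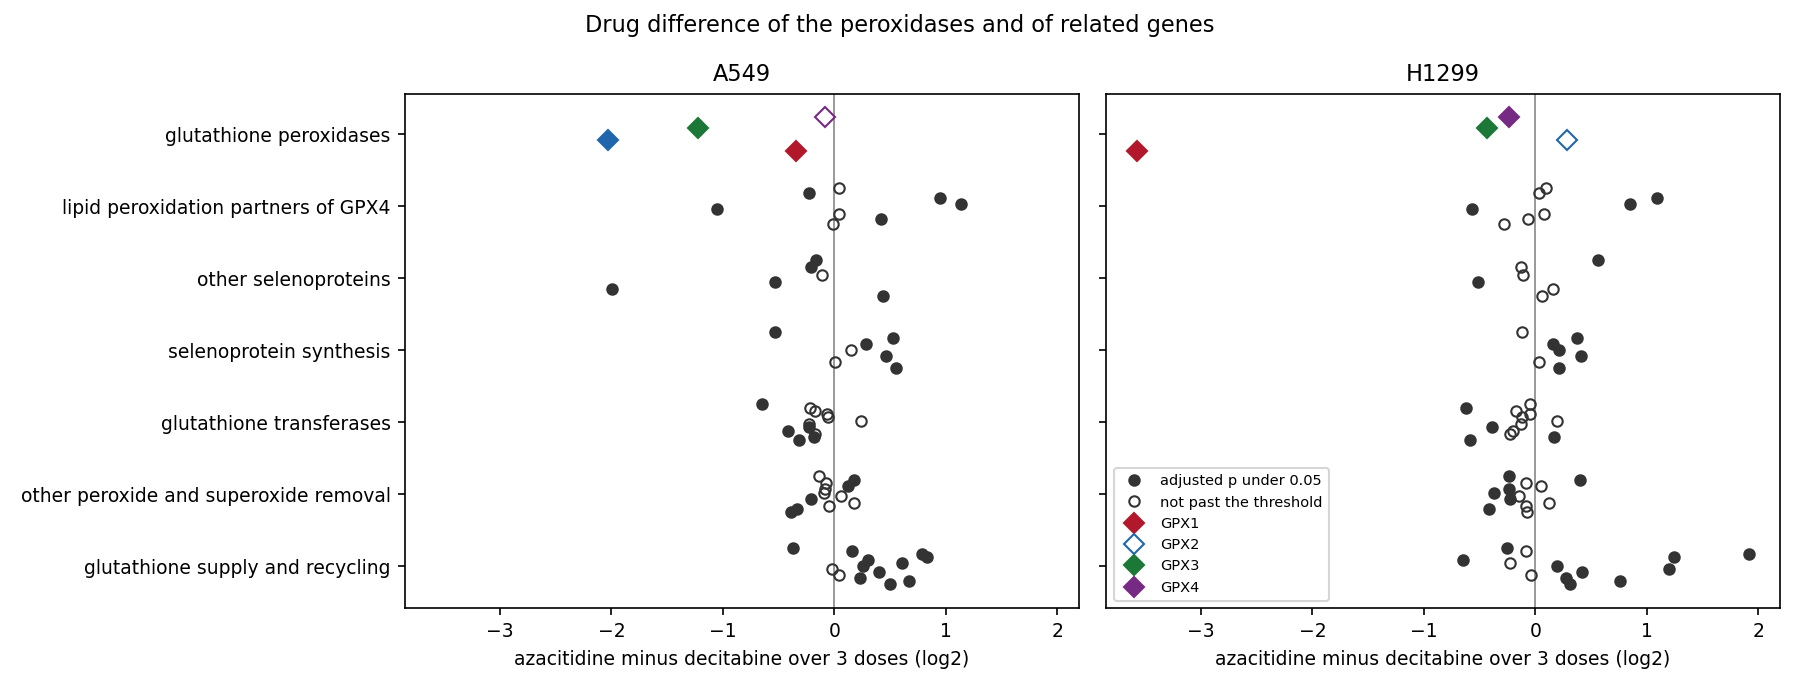
Each symbol is the log2 difference of 1 gene, azacitidine minus decitabine over 3 doses (horizontal axis), with A549 on the left and H1299 on the right; rows are the glutathione peroxidases and the 6 lists, filled symbols passed an adjusted p under 0.05. The peroxidases reach -2.03 (GPX2) in A549 and -3.57 (GPX1) in H1299. Of 13 glutathione supply genes 10 and 8 were higher with azacitidine, beside 27.9% and 30.9% of all genes. SLC7A11 and SLC3A2 among them were listed with their movement in these data known.

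Genes whose pattern was most like that of a member were taken by Pearson's r over the 14 group means of log2(signal + 32), which share the step between the lines, so r describes that step as well as the drugs. For GPX1 they were TRAF3IP2 (0.976), MYO5C (0.976), SPINT2 (0.966), IGFBP1 (0.959) and GJA1 (0.951). For GPX2 they were MAP3K8 (0.997), ACAA1 (0.995), CEMIP2 (0.995), AGR2 (0.995) and CETN2 (0.993). AGR2 gave 2491 and 1932 with vehicle in A549, 169 and 158 with azacitidine at 3 µM and 2731 and 2537 with decitabine at 3 µM, and at most 6.63 in H1299.

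For GPX3 the most alike were COL6A1 (0.991), S100A3 (0.986), HSPB8 (0.986), APH1B (0.985) and TACC1 (0.984), and for GPX4 PNN (0.975), HMMR (0.974), COX6C (0.958), TYMS (0.958) and HNRNPAB (0.958). Among the members themselves, over the 7 A549 group means, r was 0.76 for GPX1 with GPX2, 0.93 for GPX1 with GPX3 and 0.88 for GPX2 with GPX3. In H1299 it was 0.88 for GPX1 with GPX3, -0.84 for GPX1 with GPX2 and -0.86 for GPX2 with GPX3, where GPX2 and GPX3 were dim. With GPX4 it ran from 0.56 to 0.69 over the other members in A549, and in H1299 it was 0.43 for GPX1, -0.08 for GPX2 and 0.23 for GPX3. These values share arrays and scaling and are given as a description.

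The nearest genes with a kept probe set on either side of GPX1 and GPX2 were taken from RefSeq. Beside GPX1, the deubiquitinase USP4 was higher with azacitidine over doses in A549 (0.51, adjusted p = 1.1e-06) and H1299 (0.29, adjusted p = 7.6e-04), where GPX1 was lower. The small GTPase RHOA differed by -0.04 in A549 (adjusted p = 0.37) and 0.09 in H1299 (adjusted p = 0.037). Beside GPX2 in A549, RAB15 was at -0.25 (adjusted p = 0.022) and PLEKHG3 at -0.29 (SE 0.18, adjusted p = 0.18), the same sign as the -2.03 of GPX2 but a smaller size. At 3 µM azacitidine in A549 RAB15 was also lower than with vehicle (-0.66, adjusted p = 0.0018). In H1299 RAB15 was at -0.02 and PLEKHG3 at -0.14, neither called.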

How the data were processed

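Total RNA of 28 samples was hybridised to 1-colour Affymetrix human expression arrays. The deposited values are MAS5 signal, a linear intensity per probe set, per the submitters' processing notes, with no version or scaling target given in the sources used here. Probe sets brighter than the median of their array on 2 or more arrays entered the fit, and the brightest of these on average stood for each of 8024 genes. A limma model (limma 3.58.1, R 4.3.3) with 1 mean per group was fitted to log2(signal + 32) over all 28 arrays (14 residual degrees of freedom), with an intensity trend and Benjamini-Hochberg adjustment over all genes in each of 28 comparisons, two-sided. Comparisons between the lines are given without a test for GPX2 and GPX3, kept through A549 alone. A fold on this scale understates the change of dim genes. The drug difference over doses also got, per gene, a two-sided exact permutation test that exchanged drug labels inside each dose.

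The members and lists were chosen with earlier results of these data known. Genes named were the members, the 5 genes most like each, the 2 called genes of each list with the largest drug difference in each line, and the neighbours of GPX1 and GPX2; the signals of DIO3 and AGR2 were chosen for print after their values were seen. Of the list genes, 23 had no singly named probe set. The labels do not tell whether replicates were separate cultures, so a p measures the spread between these samples, which may be technical. Replicate numbers were not used to pair the arrays in the main fit. Deviations of same-numbered arrays correlated at -0.25 to 0.27 in A549 and -0.08 to 0.16 in H1299. The correlation was above 0.1 for 9 of 21 pairs of groups in A549 and 3 of 21 in H1299. A simulation with 8024 genes changed only a small part of them and drew independent normal noise. In it the drug difference over doses in A549 was found for 83% of genes changed by log2 0.5 and 100% at log2 1 (false share 4.69%). In H1299 it was found for 85% and 99% (false share 8%). In the arrays themselves limma called 54.4% of all genes in A549 and 54% in H1299 for that comparison. Whether the shares found and the false shares above hold for the arrays was not tested. Upstream sequences are from RefSeq, GRCh38.p14. Alternatives were other scalings, pseudocounts of 1 and a value above 32, other filters and probe sets, 1 line alone, no trend, a replicate block, a log2 1 threshold, the 25th percentile as covariate and arrays left out.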

Additional observations from a re-analysis of the deposited data

Results flagged for a closer look

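The 5 values listed here, all A549 minus H1299 under the same contrast, were picked because limma's adjusted p was under 0.05. The drug difference over doses differed by 3.23 for GPX1, and the response to azacitidine at 3 µM by 0.66 for GPX4, both by a test of the difference itself. The drug difference over doses differed by -2.31 for GPX2 and by -0.79 for GPX3, and the response to decitabine at 3 µM by 0.84 for GPX3. These 3 values are a description only, because GPX2 and GPX3 passed the filter through A549 alone and were dim on all 14 H1299 arrays. That the threshold picked them is not taken as a result. The GPX3 value under decitabine ran from 0.34 to 1.33 over left-out arrays. No group held enough arrays for a search for single arrays far from the rest.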

How the results depend on the processing

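Of the differences between the drugs over doses, those of GPX1, GPX3 and GPX4 in H1299 and of GPX2 and GPX3 in A549 kept their direction and their limma call under every scaling, pseudocount, filter and left-out array tried, apart from a threshold of log2 1. For GPX4 in H1299 the exact permutation test gave p = 0.19 all the same. With 1 added to the signal, GPX1 in A549 was not called (-0.35, adjusted p = 0.29), while GPX2 in H1299 was (1.18, adjusted p = 0.019), and the GPX3 difference between lines was -0.56; the cause was not tested. A required log2 difference of 1 removed GPX1 in A549 (-0.35), GPX3 in H1299 (-0.43) and GPX4 in H1299 (-0.24), and left 189 and 196 of all genes in A549 and H1299, against 4366 and 4329; the GPX3 difference between lines (-0.79) is under it too. The replicate block, which pairs arrays by number within a line, called GPX2 in H1299 (0.29, adjusted p = 0.040) and changed no other drug difference over doses. Leaving out single arrays, GPX2 in H1299 ranged from 0.14 to 0.43 and the GPX4 difference between lines from 0.12 to 0.20; without the 3 arrays, chosen after seeing the data, the latter was 0.21.

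Signs turned mainly among uncalled values near 0. For GPX1 in A549, azacitidine 1 µM against vehicle was -0.012 with the covariate and -0.0053 without the 3 arrays (-0.0053 to 0.16 over left-out arrays), and the drugs at 0.3 µM 0.047 with median centring (-0.039 to 0.022). For GPX2 in H1299 the ranges over left-out arrays were -0.29 to 0.077, -0.53 to 0.16 and -0.74 to 0.13 against vehicle (azacitidine 0.3 and 3 µM, decitabine 1 µM), -0.37 to 0.50 and -0.11 to 0.59 between drugs at 1 and 3 µM, and -0.42 to 0.27 for azacitidine 3 against 0.3 µM. For GPX3 with the other probe set, azacitidine 0.3 µM in A549 was -0.023, and in H1299 azacitidine 1 µM, called at 0.56, was -0.13, azacitidine 3 µM -0.29 and azacitidine 3 against 0.3 µM -0.49. That last was -0.034 with median centring, and azacitidine 0.3 µM was -0.017 with the larger constant added. Over left-out arrays GPX3 in H1299 ranged from -0.49 to 0.49 and -0.41 to 0.57 (azacitidine 0.3 and 3 µM against vehicle), -0.17 to 0.0034 between drugs at 1 µM, and -0.083 to 0.24 (azacitidine 3 against 0.3 µM). For GPX4, decitabine 0.3 µM in H1299 was 0.025 with median centring (-0.086 to 0.043) and decitabine 1 µM -0.076 to 0.15. In A549 the drugs differed for GPX4 by -0.010 to 0.14 at 0.3 µM and by -0.021 to 0.11 at 1 µM, with -0.0040 under the covariate. Decitabine 3 against 0.3 µM was -0.021 with median centring and -0.058 without the 3 arrays (-0.058 to 0.11). Signals under the array median limit GPX2 and GPX3 in H1299.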
